A study of Mus musculus with 8 samples.

Results

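The replication-dependent histone genes encode the bulk of the histones that package newly copied DNA. They were taken as the protein-coding genes whose symbols begin with Hist1h to Hist4h, or with the newer family symbols H2ac, H2bc, H3c and H4c, together with the linker histones H1f1 to H1f5. The rule found 67 genes among 55401 counted genes, namely 6 of the H1 family, 18 of H2A, 18 of H2B, 12 of H3 and 13 of H4. They were followed through 8 RNA sequencing libraries of mouse embryonic stem cells (ESCs), with 2 libraries labelled Control, 3 labelled Zzz3_auxin and 3 labelled Yeats2_auxin. In the cells of those last 6 libraries ZZZ3 or YEATS2 carried an auxin-inducible degron, a tag through which auxin triggers degradation of the protein in cells that express the plant receptor Tir1, and auxin was given at 500 µM for 24 h. Both proteins are subunits of ATAC, a coactivator complex that holds a histone acetyltransferase. All cells grew in medium with fetal calf serum, LIF and the 2 inhibitors known as 2i, with G418 to select for Tir1. The labels give neither the parental line nor the treatment of the Control libraries, so the degron, the clone and the auxin cannot be told apart in either comparison with them. They also do not say which libraries came from separate cultures, so the P values measure the spread between these libraries only.

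Histone octamers are built from H2A, H2B, H3 and H4, and H1 binds the linker DNA between them. The genes of these proteins lie in clusters, most have no intron, and they are transcribed in S phase, when the coactivator NPAT is phosphorylated by cyclin E with CDK2. Their mRNAs usually end in a stem-loop bound by SLBP in place of a poly(A) tail. In cycling cells such as ESCs this makes their RNA abundant, but only libraries made without poly(A) selection capture it in full. The protocol here describes removal of ribosomal RNA from total RNA, although the labels name poly(A) RNA.

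On mm10, 54 of the 67 genes lay on chromosome 13 between positions 21715763 and 23934851, and 10 lay on chromosome 3 between 96219865 and 96270132. The remaining ones were *Hist3h2a* and *Hist3h2ba* on chromosome 11 and *Hist4h4* on chromosome 6. The 13 H4 genes encoded 1 protein and the 12 H3 genes encoded 3, whereas the 18 H2A genes encoded 9, the 18 H2B genes 12 and the 6 H1 genes 6. Nearly identical genes share reads, and only reads with a single position were counted. Of the 67 genes, 9 were too low to test (*Hist1h2ao*, *Hist1h2ap*, *Hist2h2aa1*, *Hist2h2aa2*, *Hist1h2bq*, *Hist1h2br*, *Hist2h3c1*, *Hist1h4m* and *Hist1h4n*), and 7 of those had no read in any library. In those 9, at most 19.3% of the 100-base windows of the transcript were found in no other gene. All 39 genes in which such windows made up at least 50% were tested. A low share did not always mean no reads, since *Hist2h2bb* and *Hist2h3b*, with no window of their own, were counted and tested. Windows held by an overlapping gene on either strand also counted as shared, and both genes overlap *Gm20628* on the other strand. The 58 tested genes were 6 of H1, 14 of H2A, 16 of H2B, 11 of H3 and 11 of H4.

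The stem-loop marks this class of mRNA, and its letters are shown for 1 gene of each of the 5 kinds found. The search took GGCNC, then TTTTN, then AGNGCC without a gap on the sense strand of the annotated transcripts, and it found the stem-loop in 42 of the 67 genes. Across all 21901 protein-coding genes it was found in 45 (0.205%), the others being *H2afx*, *H2bfm* and *Trim17*. An exon of *Trim17* overlaps *Hist3h2a*, which has the stem-loop, on the same strand, and whether both matches are 1 stretch was not checked. In 12 of the 25 histone genes without a match the annotated transcript ends at or near the stop codon, so the stretch was not in the sequence searched. Capitals mark the stem-loop in the transcript, 5′ to 3′, with T for U.
Hist1h2ab: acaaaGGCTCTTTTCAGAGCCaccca
Hist1h2bb: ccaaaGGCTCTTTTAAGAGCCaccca
Hist2h2ac: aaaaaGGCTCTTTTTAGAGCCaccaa
Hist1h4d: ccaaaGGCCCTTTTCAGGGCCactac
Hist2h4: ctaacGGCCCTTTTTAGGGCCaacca
The kind shown for *Hist1h2ab* was found in 26 genes and that of *Hist1h4d* in 7, that of *Hist1h2bb* in 6, that of *Hist2h4* in 2 and that of *Hist2h2ac* in 1.

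The promoters differed by family. In the 250 bases upstream of the annotated start, taken on both strands and with the first listed promoter of each gene, CCAAT stood in all 6 H1, all 18 H2A and all 16 H2B promoters available, in 8 of 10 of H3 and in 3 of 12 of H4, against 33.8% of all 32851 promoters. The octamer ATTTGCAT, the binding sequence of OCT1, stood in 7 H2A promoters (38.9%) and 6 H2B promoters (37.5%) and in none of the other families, against 1.60% of all promoters. The counted promoter of *Hist1h2be* does not hold the octamer, but another listed promoter of this gene, not counted here, does. TATAAA stood in 66.7% of H1, 38.9% of H2A, 50% of H2B, 40% of H3 and 50% of H4 promoters, against 12.4% of all. None of the 3 motifs holds another. The 120 bases upstream of 4 genes are given as RefSeq has them on GRCm38.p6, 5′ to 3′ on the strand of the gene, because these genes are among the 3 highest of their families per kilobase or, for *Hist2h3c2*, had the lowest adjusted P of all 58. Capitals mark the 3 motifs, written as they read on the gene's strand.
Hist1h1a, chr13:23763548-23763667, plus strand: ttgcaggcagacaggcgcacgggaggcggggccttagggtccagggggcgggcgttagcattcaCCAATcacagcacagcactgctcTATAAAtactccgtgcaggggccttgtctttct
Hist1h2bb, chr13:23746614-23746733, plus strand: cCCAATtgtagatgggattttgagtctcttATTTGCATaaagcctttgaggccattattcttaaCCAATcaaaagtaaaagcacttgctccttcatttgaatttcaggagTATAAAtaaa
Hist1h4d, chr13:23581448-23581567, plus strand: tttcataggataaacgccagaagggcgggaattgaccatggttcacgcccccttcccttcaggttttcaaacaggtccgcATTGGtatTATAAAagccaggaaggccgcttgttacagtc
Hist2h3c2, chr3:96239128-96239247, minus strand: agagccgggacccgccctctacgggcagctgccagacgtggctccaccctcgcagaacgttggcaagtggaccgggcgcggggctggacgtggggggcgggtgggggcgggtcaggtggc
The *Hist1h2bb* stretch holds all 3 motifs and that of *Hist2h3c2* holds none.

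The libraries held 14315120 to 27884704 reads assigned to genes, and the Zzz3_auxin 3 library was the shallowest. Levels are given in CPM, a gene's reads scaled to a common library size, in which library sizes were adjusted with edgeR's TMM factors. *Zzz3* mRNA was at 187 and 182 CPM in Control, at 77.5, 96.9 and 112 CPM in Zzz3_auxin and at 183 to 191 CPM in Yeats2_auxin, so it was lower in all 3 libraries named for it (log2 FC -0.95 ± 0.14 SE, adjusted P = 0.019, edgeR), a call that 6 of 16 alternatives ended (adjusted P up to 0.293). *Yeats2* mRNA was at 90.9 and 95.8 CPM in Control and at 77.3, 103 and 43.7 CPM in Yeats2_auxin, which overlap. A degron acts on the protein, so neither mRNA checks the depletion. The 9 ESC markers (*Pou5f1* and others) summed to 4887 to 5737 CPM and the 11 markers of other cells to 10.4 to 19.8 CPM over the 8 libraries.

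The 67 genes together took 0.165% to 0.445% of the assigned reads. Their summed level was 1687 and 3070 CPM in Control 1 and 2, 2289, 2128 and 4267 CPM in Zzz3_auxin 1 to 3, and 2331, 3207 and 2105 CPM in Yeats2_auxin 1 to 3. Zzz3_auxin 3 was the highest and Yeats2_auxin 2 the second highest in each of the 5 families, and Control 1 was the lowest in each. The groups therefore overlapped in each family. In bulk RNA, a smaller share of cells in S phase and less histone RNA per cell cannot be told apart.

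The families spread unequally between the libraries. Summed H1 was 1082 and 1854 CPM in Control, 1435, 1335 and 2064 CPM in Zzz3_auxin and 1448, 1871 and 1303 CPM in Yeats2_auxin, a 1.91-fold range. H4 had the widest range, 7.12-fold, with 77.6 and 173 CPM in Control, 154, 142 and 552 CPM in Zzz3_auxin and 133, 225 and 112 CPM in Yeats2_auxin. H1 and H4 shared their extreme libraries but not the size of the range.

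H2A was the lowest family, at 27.0 and 47.5 CPM in Control, 52.7, 40.2 and 149.8 CPM in Zzz3_auxin and 31.4, 55.0 and 32.3 CPM in Yeats2_auxin. H3 was at 65.7 and 167 CPM in Control, 182, 124 and 337 CPM in Zzz3_auxin and 113, 208 and 113 CPM in Yeats2_auxin. H2B was at 435 and 829 CPM in Control, 465, 486 and 1163 CPM in Zzz3_auxin and 605, 849 and 545 CPM in Yeats2_auxin. The ranges were 5.54-fold for H2A, 5.13-fold for H3 and 2.68-fold for H2B. The wide spread came with the Zzz3_auxin 3 library, which exceeded the mean of Zzz3_auxin 1 and 2 by 1.49-fold for H1, 3.23-fold for H2A, 2.45-fold for H2B, 2.20-fold for H3 and 3.73-fold for H4.

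**Figure D1:**
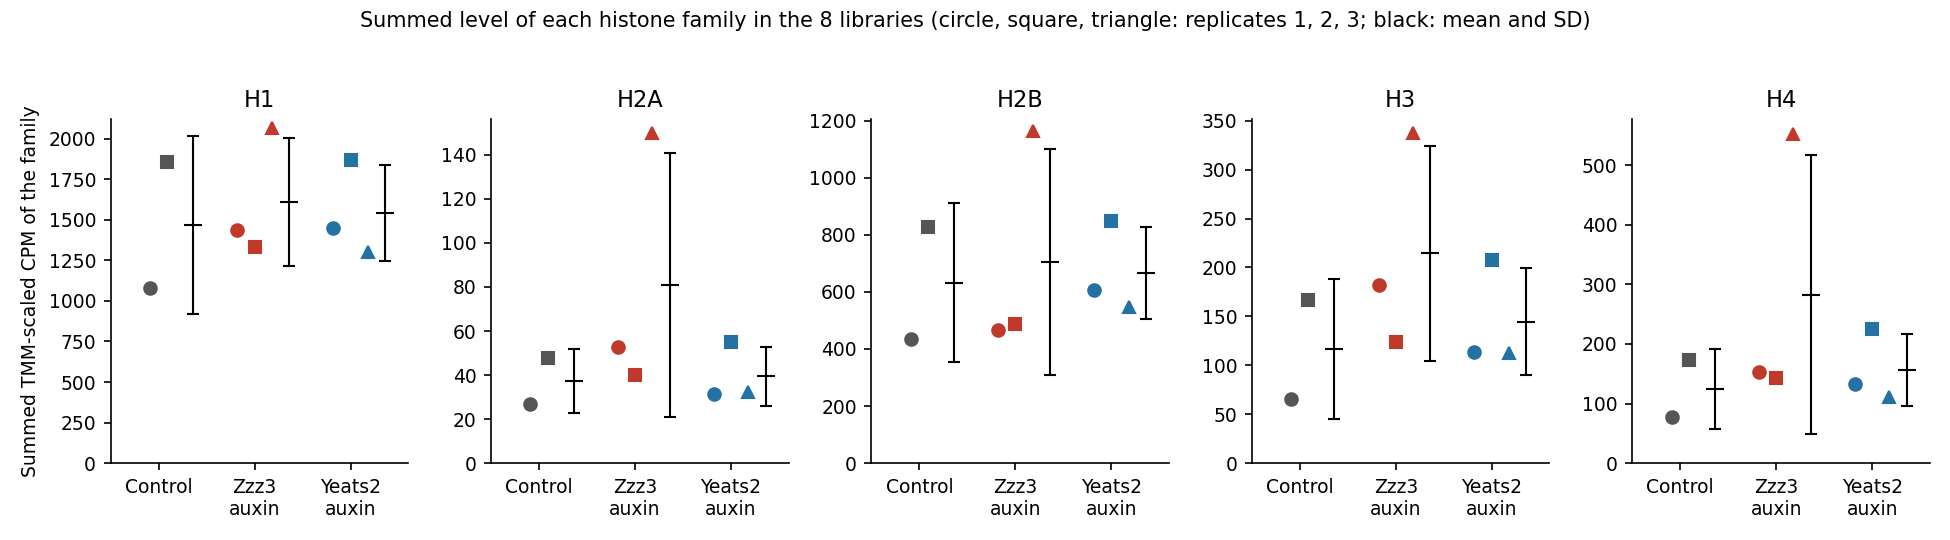
Summed level of each histone family in each library (vertical axis, TMM-scaled CPM from 0), with 1 panel per family, 1 symbol per library by group and replicate, and the mean and SD of each group in black. Zzz3_auxin 3 is the highest symbol and Control 1 the lowest in all 5 panels, over a 1.91-fold range for H1 and a 7.12-fold range for H4.

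The same libraries stood out gene by gene. Of the 58 tested genes, 46 were highest in Zzz3_auxin 3 and 39 were lowest in Control 1. In Zzz3_auxin 3, 41 of the 58 genes (70.7%) exceeded the mean of Zzz3_auxin 1 and 2 by more than 2-fold, against 4.06% of all 17532 tested genes, and the median ratio was 3.22 against 0.992. These 41 genes were 1 of 6 of H1, 12 of 14 of H2A, 12 of 16 of H2B, 7 of 11 of H3 and 9 of 11 of H4. The 2-fold limit and the library were chosen after the values were seen.

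Other measures moved with these libraries. *Rn7sk*, the 7SK RNA that restrains elongation by RNA polymerase II and has no poly(A) tail, was at 7916 and 16360 CPM in Control, at 11020, 11620 and 30040 CPM in Zzz3_auxin and at 12380, 20930 and 10510 CPM in Yeats2_auxin. *Rpph1*, the RNA of ribonuclease P, was at 65.6 and 453 CPM in Control, at 285, 192 and 956 CPM in Zzz3_auxin and at 141, 360 and 135 CPM in Yeats2_auxin. Both were lowest in Control 1 and highest in Zzz3_auxin 3, as the histone families were. The share of reads with more than 1 position in the genome was 46.4% and 51.7% in Control, 45.6%, 47.8% and 50.6% in Zzz3_auxin and 46.9%, 51.2% and 46.7% in Yeats2_auxin. A GC index was taken as the median deviation of log2 level from a gene's mean over the libraries, in genes with a GC content above 53.9% less that in genes below 44.3%. It was -0.591 in Control 1 and 0.430 in Zzz3_auxin 3, its lowest and highest values, and the tested histone genes had a median GC content of 57.5% against 49.0% for all tested genes. The part of poly(A) status, read placement and GC content in the histone levels per library was not tested. Those levels carry no GC correction. An alternative edgeR fit with a GC and length correction called 1 histone gene for Zzz3_auxin. This was *Hist2h3c2*, which was lower (log2 FC -1.39, adjusted P = 0.046).

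**Figure D2:**
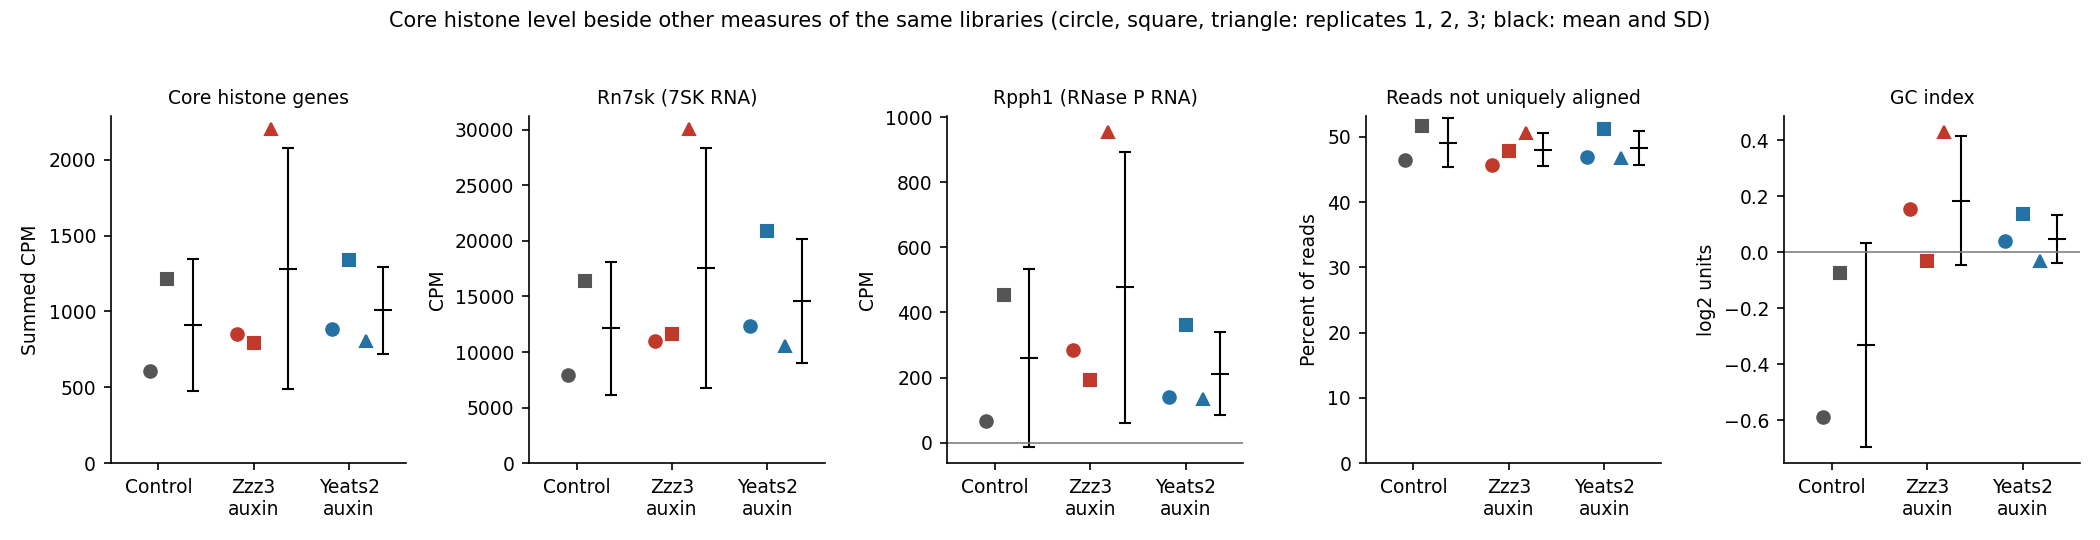
Summed level of the H2A, H2B, H3 and H4 genes (CPM), *Rn7sk* and *Rpph1* level (CPM), share of reads not uniquely aligned (percent) and GC index (log2 units), 1 panel each, with 1 symbol per library by group and replicate and the mean and SD of each group in black. Zzz3_auxin 3 is the highest symbol in 4 panels, with 30040 CPM of *Rn7sk*, 956 CPM of *Rpph1* and a GC index of 0.430, while the share of reads not uniquely aligned is highest in Control 2 (51.7%).

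Of the other RNAs without a poly(A) tail, the Y RNAs *Rny1* and *Rny3* did not share this order. *Rny3* was at 3.6 and 3.95 CPM in Control, 8.75, 6.93 and 6.69 CPM in Zzz3_auxin and 4.22, 6.62 and 5.10 CPM in Yeats2_auxin (log2 FC of Zzz3_auxin 0.98, adjusted P = 0.075). *Rny1* gave a log2 FC of 0.99 (adjusted P = 0.114). The minor spliceosome RNAs gave -0.21 for *Rnu11* and 0.49 for *Rnu12* (adjusted P = 0.837 and 0.414). None of the 6 tested RNAs of this list passed edgeR's test in any of the 3 comparisons. At an unadjusted P under 0.05 there were 2 for Zzz3_auxin (33.3%), 0 for Yeats2_auxin and 1 between them (16.7%). The shares of all genes were 21.7%, 14.6% and 6.25%. DESeq2 called *Rny1* and *Rny3* for Zzz3_auxin (33.3%, against 6.35% of all genes).

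Zzz3_auxin was compared with Control in 1 fit over all 8 libraries (edgeR quasi-likelihood test, with Benjamini-Hochberg adjustment over all tested genes). No histone gene passed an adjusted P of 0.05, against 132 genes in all (0.753%). At an unadjusted P under 0.05 there were 10 of 58, or 17.2%, against 21.7% of all genes, and DESeq2 called 1 of 58 against 6.35% of all genes. All 3 shares lay below the background, but they come from the same 58 genes and libraries. Whether they differ from the background was not tested. By value, 49 of 58 histone genes were higher in Zzz3_auxin, with a median log2 FC of 0.99, whereas 51.1% of all genes were higher, with a median of 0.0098. Without Zzz3_auxin 3 the median was 0.15 and 35 genes were higher, without Control 1 the median was 0.52, and without Control 2 it was 1.63.

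The median log2 FC of Zzz3_auxin by family was 0.022 for H1, 1.18 for H2A, 0.75 for H2B, 1.06 for H3 and 0.97 for H4. Without Zzz3_auxin 3 these medians were -0.23, 0.54, -0.16, 0.38 and 0.20 in the same order. H2A kept the highest median, and H2B turned from a positive to a negative one. All Zzz3_auxin libraries lay above both controls for 8 of the 58 genes (13.8%, against 16.8% of all genes), namely *Hist1h2aa*, *Hist1h2af*, *Hist1h2ag*, *Hist1h2ai*, *Hist1h2an*, *Hist1h2bc*, *Hist1h2bn* and *Hist1h4a*. All lay below both controls for *Hist2h2ab* and *Hist2h3c2* (3.45%, against 18.9% of all genes). Without Zzz3_auxin 3 these counts were 8 (13.8%) and 6 (10.3%), against 24.0% and 24.5% of all genes.

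Yeats2_auxin was compared with the same 2 controls. No histone gene passed edgeR's test, against 78 genes in all (0.445%), and DESeq2 also called none, against 2.48%. At an unadjusted P under 0.05 there were 2 of 58, *Hist1h1e* and *Hist2h3c2*, against 14.6% of all genes. By value, 42 of 58 were higher in Yeats2_auxin, with a median log2 FC of 0.14, against -0.0081 for all genes. Without Zzz3_auxin 3 in the fits, the medians of the 2 comparisons with Control were 0.16 for Yeats2_auxin and 0.15 for Zzz3_auxin. That median was -0.30 without Control 1 and 0.80 without Control 2, so its direction rested on which control was kept. No gene had all Yeats2_auxin libraries above both controls, against 19.3% of all genes, and 5 had all below (*Hist1h1e*, *Hist2h2ab*, *Hist3h2a*, *Hist2h2be* and *Hist2h3c2*), or 8.62% against 21.0%.

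The direct comparison of Yeats2_auxin with Zzz3_auxin, which uses no control library, also called no histone gene. Across all genes edgeR called 0 (0%) and DESeq2 called 3 (0.0171%), none of them a histone gene, and at an unadjusted P under 0.05 there were 5 of 58 histone genes against 6.25% of all. By value, 50 of 58 were lower in Yeats2_auxin, with a median log2 FC of -0.69. Without Zzz3_auxin 3 the median was 0.032 and 31 of 58 were higher. No gene had all Yeats2_auxin libraries above all Zzz3_auxin libraries (background 5.25%), and *Hist1h2an* and *Hist1h2bn* had all below (background 5.82%). Without Zzz3_auxin 3 those counts were 7 (12.1%) and 2 (3.45%), against 9.90% and 11.2% of all genes.

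**Figure D3:**
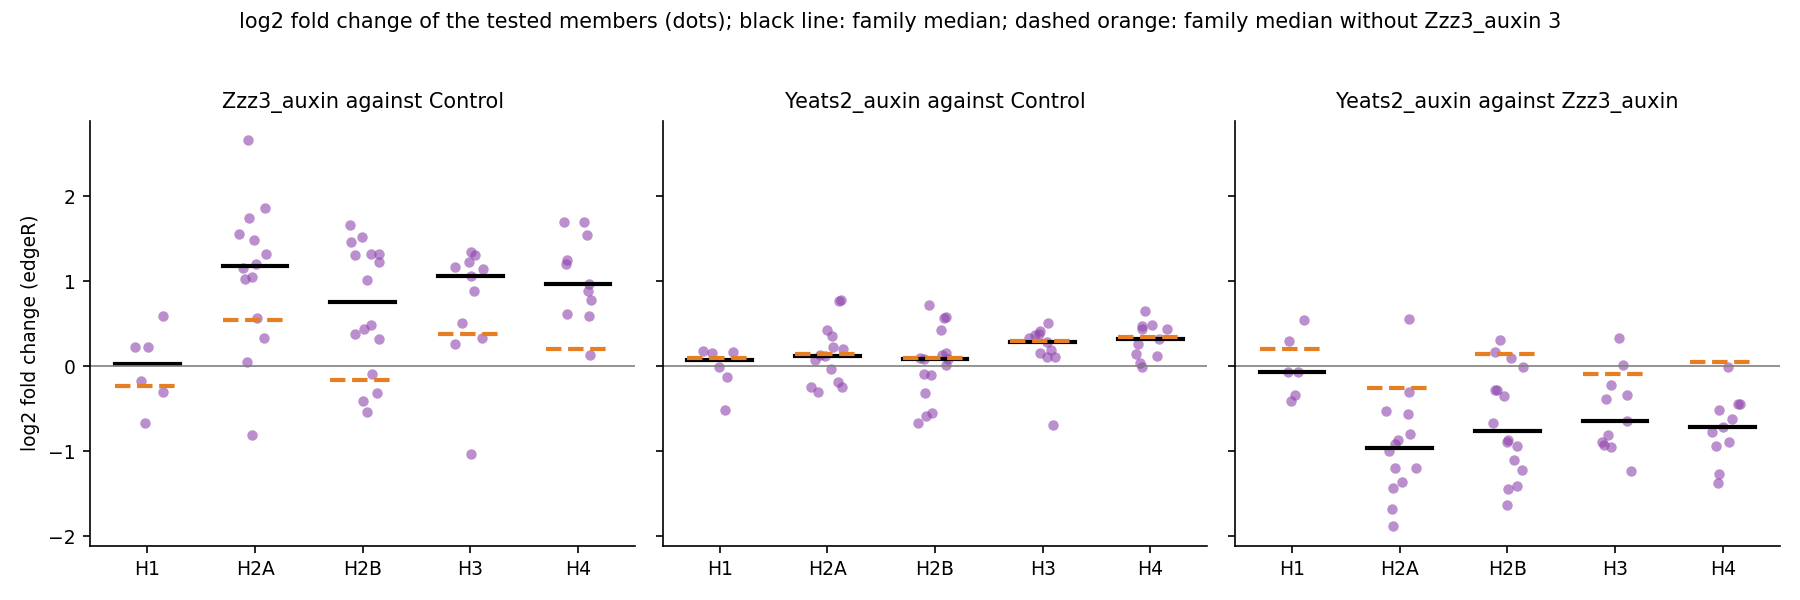
Log2 FC from edgeR of each tested histone gene (dots) by family, in 1 panel for each of the 3 comparisons, with the family median as a black line and the family median without Zzz3_auxin 3 as a dashed orange line. For Zzz3_auxin against Control the H2B median of 0.75 becomes -0.16 without that library, and no gene passed an adjusted P of 0.05 in any panel.

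The H1 genes encode linker histones that compact chromatin. *Hist1h1a* was the highest histone gene of the family per kilobase of exon, with 63.8% of the family's level, and was at 544 and 858 CPM in Control, 762, 687 and 1020 CPM in Zzz3_auxin and 736, 946 and 673 CPM in Yeats2_auxin. Control 1 and Control 2 enclosed 4 of the 6 libraries with auxin (log2 FC 0.23 ± 0.22 SE for Zzz3_auxin and 0.16 ± 0.22 SE for Yeats2_auxin, adjusted P = 0.577 and 0.769). *Hist1h1b* followed with 25.2% and *Hist1h1c* with 5.28%.

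*Hist1h1b* was at 257 and 404 CPM in Control, 253 to 289 CPM in Zzz3_auxin and 261 to 411 CPM in Yeats2_auxin. *Hist1h1c* was at 70.5 and 181 CPM in Control, 115 to 209 CPM in Zzz3_auxin and 112 to 190 CPM in Yeats2_auxin. Neither separated the groups. *Hist1h1e* was at 113 and 184 CPM in Control and at 108, 105 and 100 CPM in Yeats2_auxin, below both controls (log2 FC -0.51 ± 0.23 SE, adjusted P = 0.324). The groups of *Hist1h1d* overlapped (log2 FC 0.59 for Zzz3_auxin, adjusted P = 0.451), and its annotated exons span 7425 bases for a coding sequence of 663, which lowers its level per kilobase. *Hist1h1t*, the testis linker histone, was at 0.844 to 2.59 CPM over the libraries and had the lowest log2 FC of the family for Zzz3_auxin (-0.67, adjusted P = 0.308).

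Among the H2A genes, which encode the partner of H2B in the octamer, *Hist1h2ab*, *Hist1h2ak* and *Hist2h2ac* had the highest levels per kilobase of exon, with 19.2%, 13.2% and 14.9% of the family's level. *Hist1h2ab* was at 3.50 and 9.07 CPM in Control, 8.06, 5.83 and 26.0 CPM in Zzz3_auxin and 4.99, 9.44 and 6.25 CPM in Yeats2_auxin. *Hist1h2ak* gave a log2 FC of 1.48 and *Hist2h2ac* of 1.03 for Zzz3_auxin (adjusted P = 0.308 and 0.295). In all 3 genes the Zzz3_auxin 3 library was the highest and Zzz3_auxin 2 lay between the controls.

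*Hist1h2ai* had the highest log2 FC of the 58 genes. It was at 0.789 and 1.86 CPM in Control, 5.45, 2.86 and 17.7 CPM in Zzz3_auxin and 1.28, 4.16 and 1.39 CPM in Yeats2_auxin, from 16 to 265 reads per library. All 3 Zzz3_auxin libraries lay above both controls, but the fold rested on few reads and a wide spread (log2 FC 2.66 ± 0.90 SE, adjusted P = 0.144). Only 11.6% of its windows were its own. Yeats2_auxin gave 0.78 ± 0.90 SE (adjusted P = 0.731), and the difference between the 2 degrons was -1.88 ± 0.71 SE (adjusted P = 0.779).

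*Hist1h2ah* at 1.86, *Hist1h2ag* at 1.75, *Hist1h2ad* at 1.55, *Hist1h2aa* at 1.32 and *Hist1h2af* at 1.21 had similar log2 FCs for Zzz3_auxin, with adjusted P of 0.199 to 0.295, and are named because of these values. All have under 10 CPM in every library. *Hist2h2ab*, of the chromosome 3 cluster, went the other way. It was at 2.12 and 2.22 CPM in Control, 0.844, 1.25 and 1.74 CPM in Zzz3_auxin and 1.51, 1.95 and 2.02 CPM in Yeats2_auxin, so all 6 libraries with auxin lay below both controls (log2 FC -0.81 ± 0.32 SE, adjusted P = 0.174 for Zzz3_auxin, and -0.25 ± 0.30 SE, adjusted P = 0.741 for Yeats2_auxin). *Hist1h2ac* had the lowest H2A log2 FC for Yeats2_auxin (-0.30, adjusted P = 0.788) and was highest in Zzz3_auxin 3, at 16.1 CPM.

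Within H2B, *Hist2h2bb* carried 75.2% of the summed CPM. It was at 347 and 641 CPM in Control, 346, 369 and 681 CPM in Zzz3_auxin and 479, 656 and 433 CPM in Yeats2_auxin, with log2 FCs of -0.09 ± 0.33 SE and 0.08 ± 0.33 SE (adjusted P = 0.910 and 0.931). None of the windows of its annotated transcript was its own, and its exon overlaps *Gm42743* on the same strand and *Gm20628* on the other, so this level is uncertain. Without it, which was tried after its share was seen, summed H2B was 88.0 and 188 CPM in Control, 119, 118 and 482 CPM in Zzz3_auxin and 126, 193 and 112 CPM in Yeats2_auxin.

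*Hist1h2bj* and *Hist1h2bb* followed per kilobase. *Hist1h2bb* was at 12.0 and 26.2 CPM in Control, 25.2, 21.0 and 97.7 CPM in Zzz3_auxin and 17.6, 28.7 and 14.6 CPM in Yeats2_auxin. *Hist1h2bj* was at 18.9 and 42.3 CPM in Control, 17.2, 23.3 and 80.2 CPM in Zzz3_auxin and 30.3, 43.9 and 24.1 CPM in Yeats2_auxin. In both, Zzz3_auxin 3 stood 3.96-fold to 4.22-fold above the mean of the other two and the rest overlapped Control.

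*Hist1h2bn* had the highest log2 FC of H2B for both degrons, 1.66 ± 0.55 SE for Zzz3_auxin (adjusted P = 0.127) and 0.72 ± 0.58 SE for Yeats2_auxin (adjusted P = 0.60). It was at 0.247 and 0.227 CPM in Control, 0.959, 0.623 and 0.669 CPM in Zzz3_auxin and 0.193, 0.579 and 0.396 CPM in Yeats2_auxin. Zzz3_auxin 3 did not stand out, but these levels rest on only 5 to 25 reads per library, with 5 in each control. At the low end, *Hist2h2be* gave -0.54 for Zzz3_auxin (adjusted P = 0.305) and *Hist3h2ba* -0.67 for Yeats2_auxin (adjusted P = 0.435). *Hist1h2bm* and *Hist1h2bg* had the highest and the lowest log2 FC between Yeats2_auxin and Zzz3_auxin (0.30 and -1.63, adjusted P = 0.885 and 0.779), the latter with 48.4 CPM in Zzz3_auxin 3 and at most 11.2 CPM elsewhere.

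Of the H3 genes, *Hist1h3b*, *Hist1h3g* and *Hist1h3h* had the highest levels per kilobase of exon. *Hist1h3b* was at 12.9 and 36.1 CPM in Control, 43.0, 27.0 and 84.6 CPM in Zzz3_auxin and 24.1, 47.3 and 26.6 CPM in Yeats2_auxin (log2 FC 1.06 ± 0.56 SE and 0.42 ± 0.55 SE, adjusted P = 0.309 and 0.767). *Hist1h3g* gave 0.89 for Zzz3_auxin and 0.50 for Yeats2_auxin, the latter the highest of H3 (adjusted P = 0.380 and 0.705). Their groups overlapped. *Hist2h3b* had the highest log2 FC of H3 for Zzz3_auxin (1.34, adjusted P = 0.269). None of its windows was its own, and its exon overlaps *Gm20628* on the other strand.

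*Hist2h3c2* had the lowest adjusted P of the 58 genes in both comparisons with Control. It was at 3.75 and 3.72 CPM in Control, 1.31, 2.20 and 2.01 CPM in Zzz3_auxin and 2.21, 2.75 and 1.94 CPM in Yeats2_auxin. All 6 libraries with auxin lay below both controls, and the controls differed by less than 0.1 CPM. The log2 FC was -1.03 ± 0.27 SE for Zzz3_auxin (adjusted P = 0.084) and -0.70 ± 0.27 SE for Yeats2_auxin (adjusted P = 0.259). DESeq2 called it for Zzz3_auxin (log2 FC -1.03, adjusted P = 0.030). Of its windows, 38.4% were its own.

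All 11 tested H4 genes were higher by value in Zzz3_auxin, from 0.13 for *Hist2h4* to 1.70 for *Hist1h4d*, and none passed the test (lowest adjusted P = 0.216, *Hist1h4a*). *Hist1h4d* was the highest H4 gene per kilobase of exon, at 18.3 and 46.5 CPM in Control, 48.8, 36.4 and 232.9 CPM in Zzz3_auxin and 35.6, 65.9 and 29.8 CPM in Yeats2_auxin. Zzz3_auxin 3 held 5.47 times the mean of Zzz3_auxin 1 and 2, which themselves lay nearer Control 2 than Control 1 (log2 FC 1.70 ± 0.95 SE, adjusted P = 0.361). *Hist1h4f* and *Hist1h4a* came next, and *Hist1h4a* was at 5.03 and 12.2 CPM in Control, 14.01, 12.4 and 50.3 CPM in Zzz3_auxin and 10.8, 18.1 and 11.7 CPM in Yeats2_auxin. *Hist1h4j* had the lowest log2 FC of H4 for Yeats2_auxin (-0.013), and *Hist1h4k* the lowest between Yeats2_auxin and Zzz3_auxin (-1.37, adjusted P = 0.779), where *Hist2h4* was the nearest to 0 (-0.0079).

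**Figure D4:**
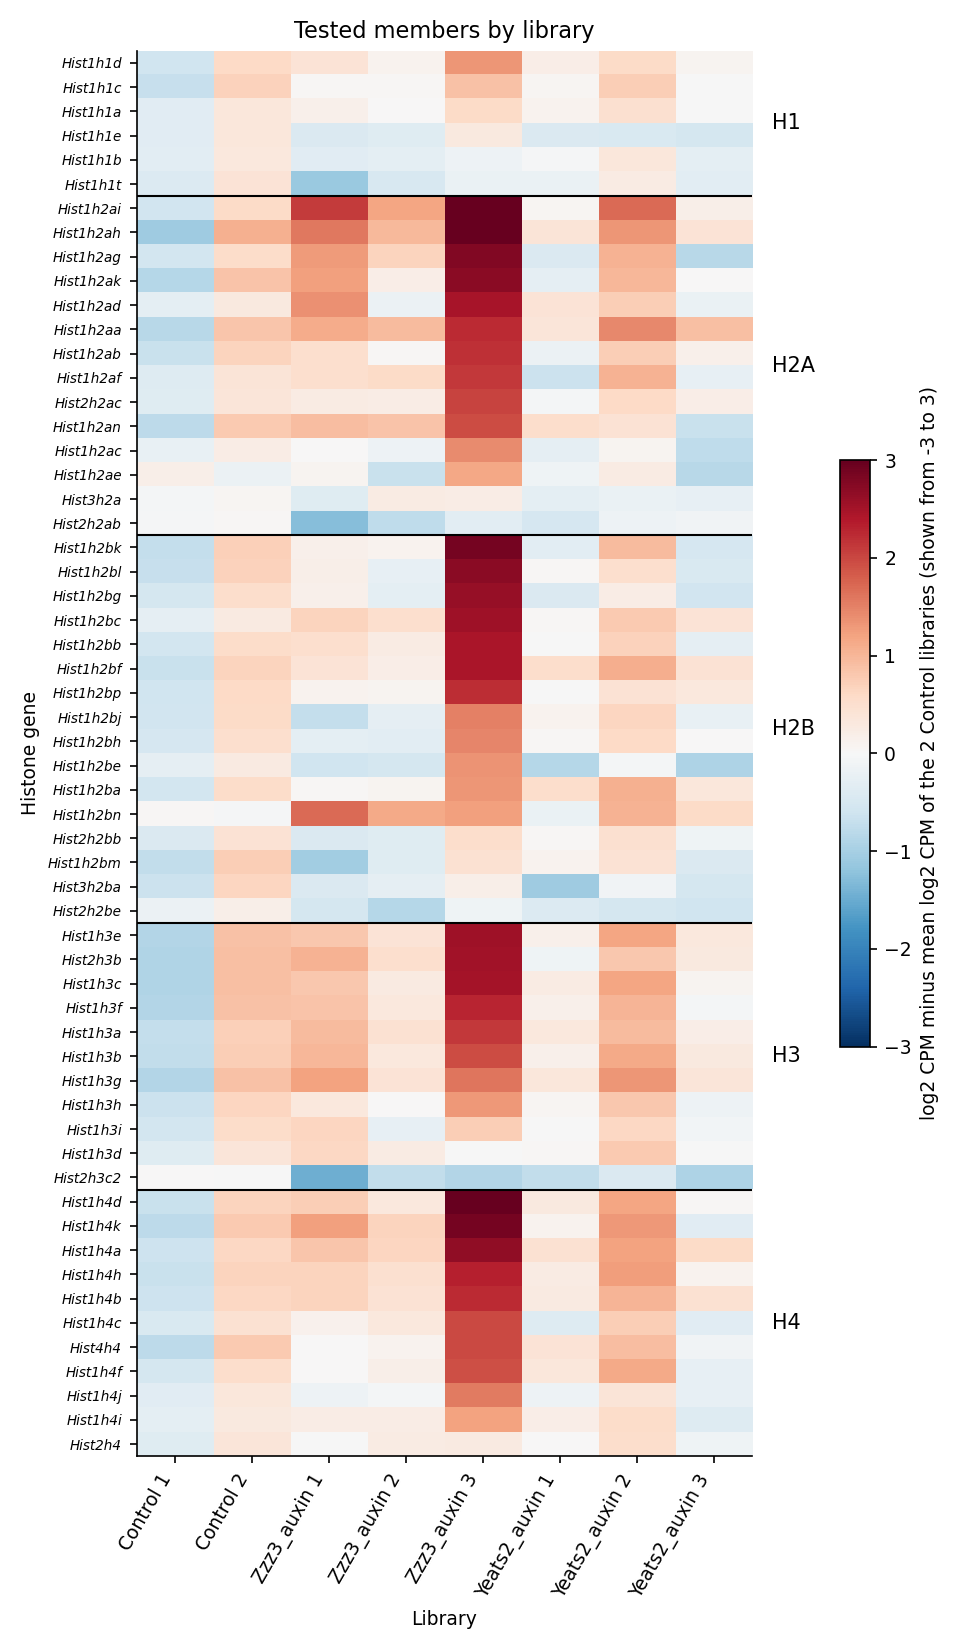
Log2 CPM of each of the 58 tested histone genes (rows, by family) in each library (columns) less its mean log2 CPM in the 2 Control libraries, with lower values in blue and higher values in red. The Zzz3_auxin 3 column holds the highest value of 46 genes and the Control 1 column the lowest of 39.

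Of 6 ratios between families, 3 separated Zzz3_auxin from Control. Per kilobase of coding sequence, H1 stood at 6.64 and 5.11 times H4 in Control, 4.45, 4.47 and 1.78 times in Zzz3_auxin and 5.17, 3.96 and 5.57 times in Yeats2_auxin. All 3 Zzz3_auxin libraries lay below both controls, and Zzz3_auxin 3 lay far below the others. H2B stood at 4.58 and 3.93 times H4 in Control, 2.47, 2.79 and 1.72 times in Zzz3_auxin and 3.71, 3.08 and 4.0 times in Yeats2_auxin, again with all Zzz3_auxin libraries below both controls. Without *Hist2h2bb* this ratio was 0.926 and 0.891 in Control, 0.631, 0.675 and 0.713 in Zzz3_auxin and 0.772, 0.698 and 0.820 in Yeats2_auxin, so that Yeats2_auxin also lay below both controls. H2A stood at 0.0604 and 0.0557 of H2B in Control, 0.110, 0.0803 and 0.125 in Zzz3_auxin and 0.0504, 0.0629 and 0.0575 in Yeats2_auxin. Without *Hist2h2bb* the H2A to H2B ratio was 0.299 and 0.246 in Control, 0.431, 0.333 and 0.302 in Zzz3_auxin and 0.242, 0.278 and 0.280 in Yeats2_auxin, which kept Zzz3_auxin above both controls but with Zzz3_auxin 3 nearly level with Control 1. In the other ratios the groups overlapped. H1 stood at 1.02 and 0.869 times the 4 core families together in Control and at 0.958, 0.956 and 0.524 times in Zzz3_auxin. H3 stood at 0.641 and 0.733 of H4 in Control and at 0.899, 0.662 and 0.462 in Zzz3_auxin, and H2A at 0.277 and 0.219 of H4 in Control and at 0.272, 0.224 and 0.215 in Zzz3_auxin. With 3 libraries against 2, a two-sided exact permutation test gives no P below 0.2, and no test was made of these ratios.

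**Figure D5:**
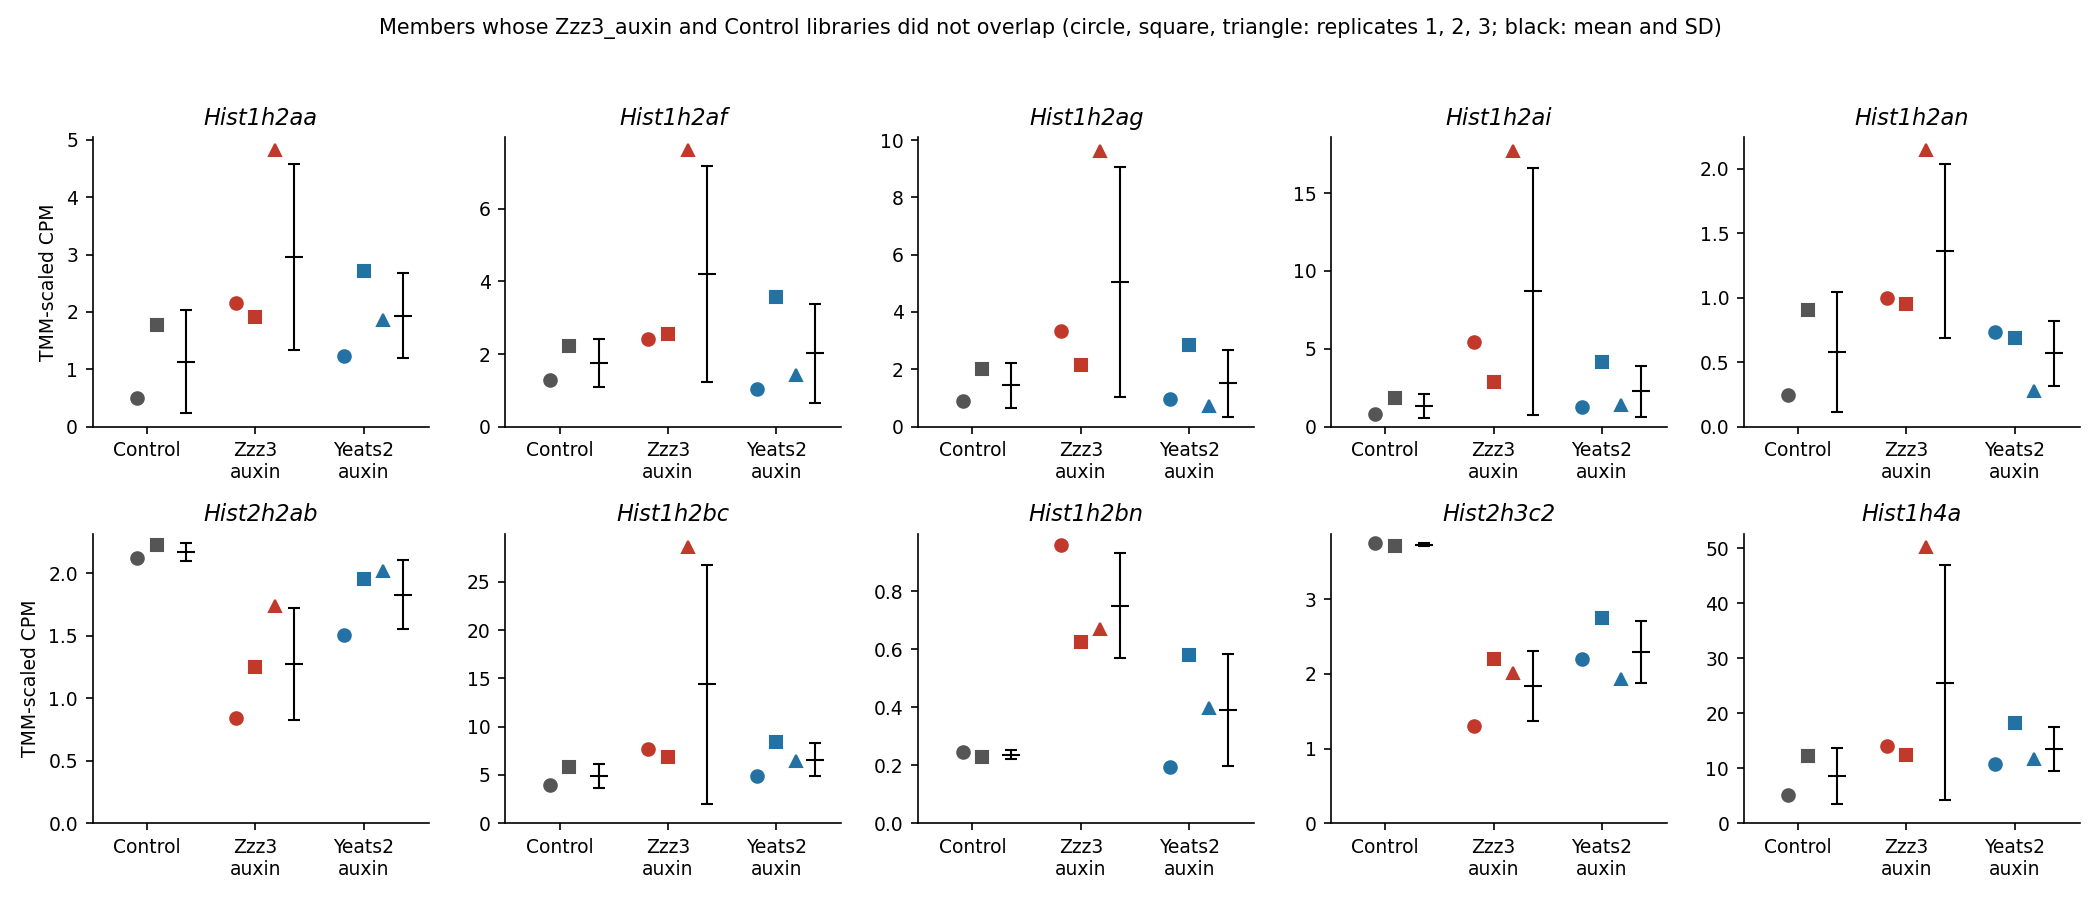
Level (TMM-scaled CPM from 0) of the 10 histone genes whose Zzz3_auxin libraries all lay above or all lay below both Control libraries, 1 panel per gene, with 1 symbol per library and the mean and SD of each group in black. Zzz3_auxin lies above both controls in 8 genes and below them in *Hist2h2ab* and *Hist2h3c2*, in which Yeats2_auxin also lies below.

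Position and neighbours were set beside the values. The 48 tested genes of chromosome 13 had a median log2 FC of 1.1 for Zzz3_auxin and the 7 tested genes of chromosome 3 of -0.086. Their median ratios of Zzz3_auxin 3 to the mean of Zzz3_auxin 1 and 2 were 3.29 and 1.67. Position and family overlap in part, since the 6 H1 genes, all on chromosome 13, had a median log2 FC of 0.022. In the other families the chromosome 13 medians were 1.32 for H2A, 1.22 for H2B, 1.06 for H3 and 1.20 for H4. Those of chromosome 3 were 0.11, -0.31, 0.15 and 0.13 in the same order, from 1 or 2 tested genes each. The part of position was not tested. Many of these genes are divergent pairs that share the stretch between their starts, and 13 such pairs lay on opposite strands with starts 176 to 660 bases apart, 12 of an H2A with an H2B gene and 1 of an H2B with an H3 gene. Both members were tested in 11 pairs. In 9 of them both exceeded 2-fold in Zzz3_auxin 3 over the mean of Zzz3_auxin 1 and 2. The exceptions were *Hist1h2ak* (3.81-fold) with *Hist1h2bn* (0.846-fold), and *Hist2h2ac* (3.51-fold) with *Hist2h2be* (1.5-fold). Paired or not, 12 of 14 tested H2A genes, 12 of 16 of H2B and 7 of 11 of H3 exceeded this limit. Most pairs would therefore hold 2 such genes without any link between neighbours, and a link was not tested. Genes whose stem-loop is followed by AATAAA or ATTAAA, 2 poly(A) signals, in the annotated transcript had a median log2 FC of 0.38 for Zzz3_auxin (14 tested). Those with a stem-loop and neither signal after it had 1.06 (21 tested). Their median ratios of Zzz3_auxin 3 to the mean of Zzz3_auxin 1 and 2 were 2.4 and 3.51. The 39 genes of mostly unique sequence had a median of 0.61 and the 19 of mostly shared sequence 1.20. These medians are descriptions and were not tested against each other. All of the log2 FC medians include Zzz3_auxin 3, without which the median of all tested histone genes was 0.15.

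The genes that act on histone genes and their mRNAs were read from lists of their own. Of 10 genes that drive histone transcription, 7 were lower and 3 higher by value for Zzz3_auxin, and 8 were lower and 2 higher for Yeats2_auxin. In each comparison with Control edgeR called 1 lower and none higher, against 0.753% and 0.445% of all genes called. DESeq2 called 2 of the 10 for Zzz3_auxin and 3 of the 10 for Yeats2_auxin, against 6.35% and 2.48%. The gene called by edgeR was *Ccne2*, the cyclin E2 that activates CDK2 at the start of S phase. It was at 59.7 and 56.6 CPM in Control, 24.8, 26.3 and 29.0 CPM in Zzz3_auxin and 21.9, 25.4 and 21.3 CPM in Yeats2_auxin. The groups did not overlap, and the log2 FC was -1.12 ± 0.13 SE for Zzz3_auxin (adjusted P = 0.013) and -1.35 ± 0.13 SE for Yeats2_auxin (adjusted P = 0.0047). Leaving out a library ended the call for Zzz3_auxin in 3 cases, with an adjusted P of 0.192 without Control 1, 0.078 without Control 2 and 0.0539 without Yeats2_auxin 1. For Yeats2_auxin it ended the call in 3 cases, with 0.109 without Control 1, 0.062 without Yeats2_auxin 1 and 0.072 without Yeats2_auxin 3. The compared groups alone gave an adjusted P of 0.109 for Zzz3_auxin, and over all alternatives the log2 FC stayed between -1.17 and -0.86 for Zzz3_auxin and between -1.43 and -1.10 for Yeats2_auxin. *Npat*, the histone gene coactivator, was at 198 and 177 CPM in Control, 137 to 142 CPM in Zzz3_auxin and 112 to 138 CPM in Yeats2_auxin, below Control in all 6 libraries with auxin, but it did not pass the test (log2 FC -0.42 and -0.56, adjusted P = 0.091 and 0.074).

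*Slbp*, the stem-loop binding protein, was at 123 and 127 CPM in Control, 92.3, 101 and 109 CPM in Zzz3_auxin and 88.4, 99.6 and 89.6 CPM in Yeats2_auxin (log2 FC -0.31 and -0.43, adjusted P = 0.154 and 0.136). *Npat* and *Slbp* are named because their values stood below Control. Other genes of the same 2 lists stood above both controls in all 6 libraries with auxin. Among them were *E2f1* (log2 FC 0.42 and 0.64, adjusted P = 0.128 and 0.085, edgeR) and *Sympk* (0.60 and 0.44, adjusted P = 0.097 and 0.265). By value, 8 of the 17 tested 3′-end processing genes were higher for Zzz3_auxin and 9 for Yeats2_auxin. None of the 17 tested genes of histone mRNA 3′-end processing, of the 17 of histone mRNA decay and translation, of the 24 S phase genes or of the 14 mitosis genes was called by edgeR in any of the 3 comparisons. At an unadjusted P under 0.05 there were 6, 7, 8 and 6 of them for Zzz3_auxin, 6, 3, 9 and 3 for Yeats2_auxin and 1, 1, 1 and 0 between them. For Zzz3_auxin these were 35.3%, 41.2%, 33.3% and 42.9%, against 21.7% of all genes, and for Yeats2_auxin 35.3%, 17.6%, 37.5% and 21.4%, against 14.6%. DESeq2 called 1, 0, 4 and 1 for Zzz3_auxin, 1, 0, 3 and 1 for Yeats2_auxin and none between them. Its share was highest in the S phase genes, 16.7% for Zzz3_auxin and 12.5% for Yeats2_auxin, against 6.35% and 2.48% of all genes. Their median log2 FCs for Zzz3_auxin were -0.037, -0.11, -0.068 and 0.060. The S phase genes summed to 6713 to 7137 CPM in Control, 7004 to 7645 CPM in Zzz3_auxin and 7462 to 7881 CPM in Yeats2_auxin, so they did not show the range of the histone families.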

How the data were processed

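Total RNA of mouse ESCs was sequenced in 8 libraries. The authors removed adapters and ribosomal RNA reads, aligned with STAR 2.5.3a to mm10 and deposited HTSeq 0.6.1p1 union counts of uniquely placed, unambiguous reads per gene. The strand option is not given in the sources used here, so reads of overlapping antisense genes may be included. Each deposited count column held 55401 genes and 5 tallies, the latter left out. Of the identifiers, 55141 matched GENCODE annotation of the reference given, and 260 did not.

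The members and the gene lists were chosen with earlier results of these data known. Groups came from the labels. The counts were filtered with filterByExpr (17532 genes), scaled by TMM and tested with edgeR 4.0.16 (robust quasi-likelihood F test, all 8 libraries, two-sided) in R 4.3.3, with Benjamini-Hochberg adjustment over all genes and calls at adjusted P under 0.05. CPM used TMM-scaled library sizes. The code was tested on simulated data. Alternatives were DESeq2 1.42.0, limma 3.58.1 with voom quality weights, other filters and size factors, a GC and length correction, a replicate block, the compared groups alone and each library left out. Named were, per family, the 3 highest tested members per kilobase and those of highest and lowest log2 FC in each comparison, every called gene of the lists, the tested structural RNAs, *Zzz3* and *Yeats2*. Genes named for another reason were chosen after their values were seen. Stem-loops were read from GENCODE transcripts and promoters from RefSeq for 62 of 67 members. Intervals of counting error were not computed, and the spread between libraries sets the precision. No 2 libraries of the same group agreed within sampling noise.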

Additional observations from a re-analysis of the deposited data

How the results depend on the processing

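The count of histone genes called for Zzz3_auxin, 0 in the fit described, was 1 with DESeq2, 3 without a filter on low counts and 1 with the GC and length correction. For Yeats2_auxin it was 0, and 1 without the filter. With each library left out in turn the Zzz3_auxin count was 0 to 1, the 1 being *Hist1h2ad* without Zzz3_auxin replicate 2 (log2 FC 2.04, adjusted P = 0.040). The genes called without the filter were *Hist1h2aa*, *Hist1h2ad* and *Hist2h3c2* for Zzz3_auxin and *Hist1h1e* for Yeats2_auxin. The median log2 FC of all tested histone genes for Zzz3_auxin ran from 0.153 (without Zzz3_auxin replicate 3) to 1.63 over the libraries left out. The H1 difference in mean log2 level ran from -0.229 (without Control replicate 1) to 0.547 (without Control replicate 2) for Zzz3_auxin, and from -0.284 to 0.493 for Yeats2_auxin. Over all genes, the calls for Zzz3_auxin, Yeats2_auxin and their direct comparison, 132, 78 and 0, were 1114, 434 and 3 with DESeq2, 1542, 553 and 117 without the filter, 0, 454 and 0 with the compared groups alone, 89, 388 and 1 with limma-voom, and 167, 132 and 0 with the GC and length correction. The cause of these changes was not tested. With each library left out they were 0 to 841, 0 to 217 and 0 to 1. Same-numbered libraries deviated together by r of -0.172 to 0.196. With 2 controls, the deviations of 1 mirror those of the other, so these values cannot decide whether the numbers pair the libraries. The fit with the replicate block called 42, 32 and 0 genes, none of them a histone gene. Of 1485 values of the 31 named members under the alternatives, 112 had the other sign, none of them called. The alternative that needed unique positions in the genome was not run, and unique transcript windows were used in its place, chosen after seeing the data. Members of low counts (under about 1 CPM) are limited by depth.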

Other observations

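The histone variant genes expressed outside S phase were read as a list of their own. None of the 11 tested variant genes was called by edgeR in any of the 3 comparisons (2 at an unadjusted P under 0.05 for Zzz3_auxin, or 18.2% against 21.7% of all genes, 2 for Yeats2_auxin, or 18.2% against 14.6%, and 0 between them, and 0 called by DESeq2), and their median log2 FC was -0.13 for Zzz3_auxin and -0.057 for Yeats2_auxin. *H3f3b*, which encodes H3.3, was at 463 and 445 CPM in Control, 396, 422 and 359 CPM in Zzz3_auxin and 405, 480 and 410 CPM in Yeats2_auxin, so its Zzz3_auxin 3 level was the lowest of the 8 libraries rather than the highest. *H2afx*, which encodes the H2A of the DNA damage response and has a stem-loop of the same kind, was at 149 and 140 CPM in Control, 152, 176 and 183 CPM in Zzz3_auxin and 178, 148 and 159 CPM in Yeats2_auxin (log2 FC 0.24 and 0.16, adjusted P = 0.298 and 0.576). *H1fx*, a linker histone variant, was lowest in Control 1, without a read, and highest in Zzz3_auxin 3, at 1.00 CPM (log2 FC 1.84 ± 1.11 SE, adjusted P = 0.364). These were also the extreme libraries of the replication-dependent families. Its second highest level was in Zzz3_auxin 1 (0.576 CPM), however, and not in Yeats2_auxin 2 (0.543 CPM). *H2afx* was also highest in Zzz3_auxin 3. The 3 genes were chosen after their values were seen.

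None of the 14 histone chaperone genes was called by edgeR in the 3 comparisons, with 5 at an unadjusted P under 0.05 for each degron against Control (35.7%, against 21.7% and 14.6% of all genes), and DESeq2 called 2 for Zzz3_auxin (14.3%, against 6.35%) and none in the other comparisons. *Nasp*, which encodes a chaperone of H3 and H4, was at 1045 and 814 CPM in Control, 923, 990 and 579 CPM in Zzz3_auxin and 1020, 1125 and 965 CPM in Yeats2_auxin, with its lowest level in Zzz3_auxin 3. *Rbbp4*, a subunit of chromatin assembly factor CAF-1 and of other complexes, was below both controls in all 6 libraries with auxin (log2 FC -0.53 for Zzz3_auxin, adjusted P = 0.084, and -0.33 for Yeats2_auxin, adjusted P = 0.311). Both were named after their values were seen.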
